A study of Mus musculus with 14 samples.

Results

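The levels of 9 C-type lectin receptor genes of myeloid cells were followed through both experiments of the series: Clec7a, Clec4n, Clec4d, Clec4e, Clec5a, Clec12a, Clec4a2, Mrc1 and Clec10a. These are 9 of the 55367 gene symbols in each count table, taken by symbol. They were selected with both comparisons of the series already known, so their levels and differences are given as a description, without a test. Messenger RNA was sequenced from wild-type mouse bone marrow cells depleted of mature lineages and cultured in medium containing the cytokines IL3, IL6 and SCF. The cells of the first experiment carried a lentivirus for luciferase (n = 3), the control, or for SETBP1-D868N (n = 3), a mutant of the nuclear protein SETBP1. In the second experiment all cells, the controls included, carried SETBP1-D868N and were kept for 4 days with DMSO (n = 4), the solvent, or with 2.5 µM PF-9363 (n = 4), an inhibitor of the MYST family of histone acetyltransferases. The promoter of the lentivirus, the share of cells transduced and whether the replicates were separate cultures are not given in the sources used here. A p-value therefore sets a group difference only against the spread between these libraries, which may be smaller than that between separate cultures.

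C-type lectin receptors are membrane proteins through which macrophages, dendritic cells and neutrophils bind sugars of fungi, bacteria, mycobacteria and damaged cells. Activating members signal through the kinase Syk, either by a motif in their own tail or through the adaptors Fcer1g and Tyrobp, and onward through Card9, Bcl10 and Malt1 to NF-kB. Inhibitory members carry a motif that recruits the phosphatases Ptpn6 and Ptpn11, and a further group takes up glycoproteins by endocytosis.

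Depth was 60147266 to 68730322 counts per library for luciferase and SETBP1-D868N and 7083731 to 10359093 for DMSO and PF-9363. RNA input was 500 ng and 100 ng, and the library preparation differed too, so levels of the 2 experiments can be set side by side but were not tested against each other. Levels are counts scaled to the library total (CPM) after TMM scaling. Of the luciferase libraries, luciferase 1 stood apart: the chi-square of its counts against the others was 27.1 and 27.7 per degree of freedom, against 2.28 between luciferase 2 and 3. The SETBP1-D868N pairs gave 8.03, 12.8 and 10.7, and pairs within DMSO or PF-9363, at lower depth, 2.73 to 7.19. Luciferase 2 and 3 were thus also the closest pair within any group, and whether they were separate cultures is not given. The mouse Setbp1 row held 0.0744 to 0.101 CPM with luciferase and 0.306 to 0.362 CPM with SETBP1-D868N, and whether it counts the transgene is not given in the sources used here. Stem and progenitor markers were present, with a summed level over 10 genes of 4824 to 5134 CPM with luciferase, and so were markers of differentiated cells: neutrophil markers summed to 21120 to 21906 CPM and macrophage markers to 734 to 738 CPM. The cultures therefore held RNA of differentiated myeloid cells as well as of granulocyte precursors, with low levels of the stem cell markers. In such bulk samples, fewer cells of a type and less RNA per cell cannot be told apart.

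Of the 9 genes, 7 lie on mouse chromosome 6 (GENCODE M21, build GRCm38). Clec4a2 (chr6:123106428-123143999, plus strand), Clec4n (chr6:123229843-123247021, plus), Clec4d (chr6:123262111-123275265, plus) and Clec4e (chr6:123281789-123289870, minus) belong to a run of 9 neighbouring Clec4 genes that spans 368.0 kb. Clec12a (chr6:129342691-129365303, plus) and Clec7a (chr6:129461591-129472779, minus) are the ends of a second run of 6 C-type lectin genes over 130.1 kb. Clec5a lies apart from both (chr6:40574894-40585821, minus), Mrc1 is on chromosome 2 (chr2:14229392-14332057, plus) and holds the microRNA gene Mir511 on the same strand, and Clec10a is on chromosome 11 (chr11:70156197-70170834, plus). GENCODE lists Clec7a as a polymorphic pseudogene, a class for genes that are intact in some strains. Of the 50-base stretches of the annotated transcripts, 9.02% of Clec10a and 6.69% of Clec4a2 also occur in another gene, mainly Mgl2 for Clec10a and Clec4b1 and Clec4a4 for Clec4a2. How reads that fit several genes were counted is not given in the sources used here, so these 2 levels are less certain than the others, for which the share was at most 0.686%.

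The DNA just before the start of transcription is shown for the 4 receptors with a RefSeq entry and the largest differences between DMSO and PF-9363: Clec7a (chr6:129472780-129473029, minus strand), Clec4d (chr6:123261857-123262106, plus), Clec4e (chr6:123289872-123290121, minus) and Mrc1 (chr2:14229164-14229391, plus). The sequences are from RefSeq (GRCm38.p6), read 5′ to 3′ on the strand of the gene and ending before the first annotated exon. Capitals mark GAGGAA, a core bound by the myeloid factor PU.1, TTGCNNAA, a C/EBP motif, and TATAAA, the TATA box, on either strand; no match overlaps another in these 4 sequences.
Clec7a: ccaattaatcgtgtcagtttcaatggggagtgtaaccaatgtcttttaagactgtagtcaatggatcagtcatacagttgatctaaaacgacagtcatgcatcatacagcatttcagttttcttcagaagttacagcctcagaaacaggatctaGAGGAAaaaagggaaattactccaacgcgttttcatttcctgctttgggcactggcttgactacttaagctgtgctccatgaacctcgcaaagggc
Clec4d: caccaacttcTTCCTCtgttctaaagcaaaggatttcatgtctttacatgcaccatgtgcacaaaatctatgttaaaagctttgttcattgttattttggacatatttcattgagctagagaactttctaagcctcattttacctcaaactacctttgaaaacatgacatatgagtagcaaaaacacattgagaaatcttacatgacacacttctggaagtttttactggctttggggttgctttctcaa
Clec4e: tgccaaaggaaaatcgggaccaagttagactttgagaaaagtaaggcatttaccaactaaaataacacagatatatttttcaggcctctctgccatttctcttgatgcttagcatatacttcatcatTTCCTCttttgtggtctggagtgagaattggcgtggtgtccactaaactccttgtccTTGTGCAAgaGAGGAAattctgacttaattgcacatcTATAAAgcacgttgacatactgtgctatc
Mrc1: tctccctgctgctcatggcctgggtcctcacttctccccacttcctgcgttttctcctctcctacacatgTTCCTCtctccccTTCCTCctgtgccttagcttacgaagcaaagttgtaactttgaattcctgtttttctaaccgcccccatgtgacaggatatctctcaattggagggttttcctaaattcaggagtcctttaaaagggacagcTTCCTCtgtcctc
Of the 9 genes, 7 had a RefSeq entry (not Clec4n and Clec10a). GAGGAA was found in the 250 bases before the start of 6 of the 7, all but Clec4a2, and in 23.1% of 27025 promoters of the same length. For Clec12a all 250 of these bases lie within exons annotated by GENCODE, and for Clec4a2 68 do, so these 2 windows are in part or wholly transcribed sequence in GENCODE. For Mrc1 and Clec5a 22 and 16 bases just before the RefSeq start do, and the printed Mrc1 sequence leaves them out. In each of these genes the RefSeq start lies inside the GENCODE gene. GAGGAA occurred once upstream of Clec7a and 3 times upstream of Mrc1, and also in the window of Clec12a, a gene that went the other way with PF-9363. TTGCNNAA was found in 2 of the 7 (9.55% of all promoters), TATAAA in 3 (13.0%) and TGANTCA, the AP-1 motif, in 1 (6.87%). The motifs were chosen after the sequences had been seen, and a match describes letters, not a bound site.

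The first comparison sets SETBP1-D868N against luciferase. All 9 receptors had a lower mean with SETBP1-D868N, by little: the median log2 fold change was -0.40, against 0.0043 over all 15794 genes tested. The lowest values were those of the 2 endocytic receptors, Clec10a and Mrc1, and the smallest difference was that of the inhibitory receptor Clec12a. The 3 SETBP1-D868N libraries lay below the 3 luciferase libraries without overlap for 7 of the 9 genes, all but Clec4e and Clec12a. Over all genes tested, 27.3% were lower without overlap. In edgeR's quasi-likelihood test across all genes, 0 of the 9 were called higher and 7 lower at an adjusted p under 0.05, beside 24.5% and 22.7% of all genes. The members were chosen from this contrast, so nothing is read from these counts.

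Among the activating receptors, Clec7a, which encodes Dectin-1, a receptor for fungal beta-glucan with a Syk-binding motif of its own, held 136, 132 and 132 CPM in luciferase 1 to 3 and 102, 117 and 87.9 CPM in SETBP1-D868N 1 to 3. The luciferase libraries were close together and the SETBP1-D868N libraries spread widely below them, with means of 133 ± 2.23 and 102 ± 14.6 CPM (SD, n = 3 each) and a log2 fold change of -0.38 ± 0.11 (SE). Clec4n encodes Dectin-2, which binds mannans and signals through Fcer1g. It held 53.3, 42.0 and 40.9 CPM with luciferase and 34.2, 39.3 and 34.5 CPM with SETBP1-D868N. Luciferase 1 was the highest library, and the lowest luciferase and the highest SETBP1-D868N library were close. Its log2 fold change of -0.34 ± 0.13 (SE) became -0.20 without luciferase 1. Clec4d encodes MCL, and Clec4e encodes Mincle, a receptor for mycobacterial glycolipid that pairs with Fcer1g. Clec4d was at 17.6 ± 0.939 CPM with luciferase and 13.2 ± 1.55 CPM with SETBP1-D868N (SD, n = 3 each), without overlap (log2 fold change -0.42 ± 0.081, SE). Clec4e held 45.8, 50.4 and 52.2 CPM with luciferase and 44.5, 47.0 and 44.3 CPM with SETBP1-D868N, so the groups overlapped, and its log2 fold change of -0.13 ± 0.048 (SE) became -0.08 when counts were scaled to the library total alone. Clec5a encodes MDL-1, which signals through Tyrobp and Hcst. It had 184, 190 and 188 CPM with luciferase and 138, 141 and 134 CPM with SETBP1-D868N, a gap much wider than the spread in either group (log2 fold change -0.44 ± 0.028, SE).

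The 2 inhibitory receptors differed from each other. Clec12a, which encodes MICL, a receptor for uric acid crystals found on granulocytes and monocytes, held 165, 174 and 177 CPM with luciferase and 164, 172 and 157 CPM with SETBP1-D868N. The groups overlapped and the log2 fold change was -0.06 ± 0.039 (SE). Clec4a2, which encodes DCIR, was at 88.0 ± 1.92 CPM with luciferase and 66.9 ± 3.91 CPM with SETBP1-D868N (SD, n = 3 each), without overlap, and its log2 fold change was -0.40 ± 0.040 (SE).

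The endocytic receptors had the lowest log2 fold changes. Mrc1 encodes the mannose receptor CD206, which clears mannose-rich glycoproteins and is widely used as a marker of alternatively activated macrophages. It held 257, 219 and 223 CPM with luciferase and 125, 135 and 143 CPM with SETBP1-D868N. The groups were far apart, luciferase 1 was again the highest library, and the log2 fold change of -0.79 ± 0.081 (SE) was -0.72 without it. Clec10a, which encodes MGL1, a receptor for galactose-type sugars, held 84.6, 88.3 and 88.0 CPM with luciferase and 46.5, 47.9 and 51.4 CPM with SETBP1-D868N (log2 fold change -0.84 ± 0.039, SE). No library of either group came near the other group. Markers of the cells that carry these receptors were lower too. All 10 macrophage markers and all 10 neutrophil markers fell, with sums of 461 to 482 CPM and 11443 to 13924 CPM with SETBP1-D868N, as did 8 of the 9 dendritic cell markers tested (858 to 1022 CPM, from 1692 to 1796 CPM), while of the 10 stem and progenitor markers 7 rose and 3 fell (Ly6a, Slamf1 and Procr), with a sum of 6623 to 6747 CPM in which Mpo, a granule enzyme of granulocyte precursors, took the largest part (3625 to 3664 CPM). No marker of these 4 lists was at 0 in a whole group. Of the 10 mast cell and basophil markers 5 rose and 5 fell (sums of 5917 to 6134 and 6364 to 6493 CPM), and of the 9 erythroid and megakaryocyte markers tested 3 rose and 2 fell (318 to 335 and 338 to 363 CPM). Over all genes tested, 24.5% rose and 22.7% fell. The part of these markers in the receptor differences was not tested.

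The second comparison sets PF-9363 against DMSO in cells that all carried SETBP1-D868N. Here 8 of the 9 receptors were higher with PF-9363 and Clec12a was lower, and in none did the 4 libraries of a group overlap the 4 of the other. Dectin-1 (Clec7a) and Dectin-2 (Clec4n) transcripts were 23.5 and 20.7 times as abundant, the mannose receptor (Mrc1) 9.02 times, and Clec12a was at 0.446 times its DMSO level. The median log2 fold change of the 9 was 2.31, against -0.04 over all 13456 genes tested. Of all genes tested, 34.0% were higher without overlap and 36.3% lower. The test called 8 of the 9 higher and 1 lower, beside 36.6% and 39.4% of all genes, and 5 were called and at least 2-fold higher, beside 15.8%. Again the members were chosen from this contrast and nothing is read from the counts.

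**Figure D1:**
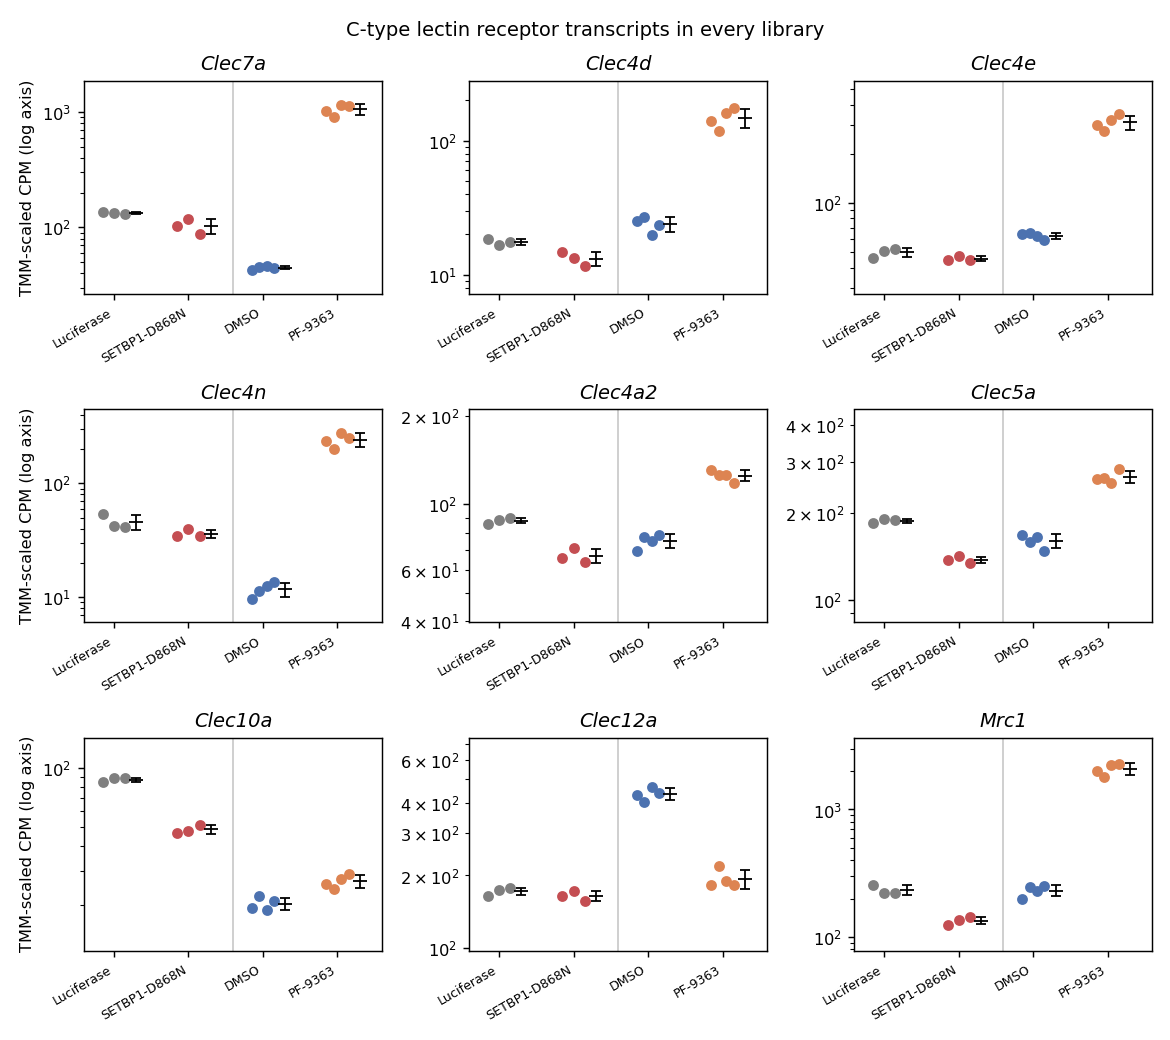
Levels of the 9 receptor transcripts in every library, as TMM-scaled CPM on a log axis that differs between panels. Points are libraries, black bars the mean ± SD of each group, and the grey line divides the 2 experiments (n = 3 libraries per group left of it and 4 right of it). Clec7a, Clec4n and Mrc1 stand far above their DMSO libraries with PF-9363, and Clec12a stands below.

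Clec7a held 42.6, 45.6, 46.1 and 44.7 CPM in DMSO 1 to 4 and 1011, 911, 1161 and 1131 CPM in PF-9363 1 to 4. The lowest treated library exceeded the highest control many times over, and the means were 44.8 ± 1.52 and 1054 ± 115 CPM (SD, n = 4 each; log2 fold change 4.56 ± 0.080, SE). Clec4n was at 9.62, 11.2, 12.4 and 13.4 CPM with DMSO, the lowest of the 9 receptors there by count, and at 236, 199, 279 and 253 CPM with PF-9363 (log2 fold change 4.37 ± 0.11, SE). Its partners on the same stretch of chromosome 6 were higher by less. Clec4d held 25.4, 26.7, 19.8 and 23.6 CPM with DMSO and 139, 118, 161 and 174 CPM with PF-9363 (log2 fold change 2.63 ± 0.13, SE). Clec4e held 64.2, 65.1, 62.8 and 59.2 CPM with DMSO and 298, 274, 322 and 348 CPM with PF-9363 (log2 fold change 2.31 ± 0.072, SE). In both genes the treated libraries were all several times above the controls. Clec5a differed far less, from 160 ± 9.04 to 265 ± 12.9 CPM (SD, n = 4 each), with a highest DMSO library of 168 CPM and a lowest PF-9363 library of 253 CPM (log2 fold change 0.73 ± 0.062, SE).

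Clec12a held 430, 403, 463 and 438 CPM with DMSO and 183, 220, 190 and 182 CPM with PF-9363. All treated libraries were well below all controls, and the log2 fold change was -1.16 ± 0.067 (SE). The other inhibitory receptor went the opposite way: Clec4a2 held 69.3, 77.2, 74.8 and 78.6 CPM with DMSO and 131, 126, 126 and 118 CPM with PF-9363 (log2 fold change 0.74 ± 0.067, SE).

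Mrc1 held 200, 245, 227 and 250 CPM with DMSO and 2000, 1795, 2251 and 2275 CPM with PF-9363. It was the most abundant of the 9 by count in the treated libraries, and its log2 fold change was 3.17 ± 0.085 (SE). The other endocytic receptor differed least of the 9. Clec10a held 19.5, 22.3, 18.9 and 20.96 CPM with DMSO and 25.8, 24.4, 27.4 and 28.9 CPM with PF-9363, a narrow gap, and its log2 fold change of 0.38 ± 0.11 (SE) was 0.15 when counts were scaled to the library total alone. That scaling moved the median of all genes by -0.23, so each value of this comparison is lower by about that much under it. Among the treated libraries PF-9363 2 was lowest for Clec7a, Clec4n, Clec4d, Clec4e, Mrc1 and Clec10a and highest for Clec12a. Without it the log2 fold changes were slightly larger, at 4.63 for Clec7a and 3.25 for Mrc1.

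**Figure D2:**
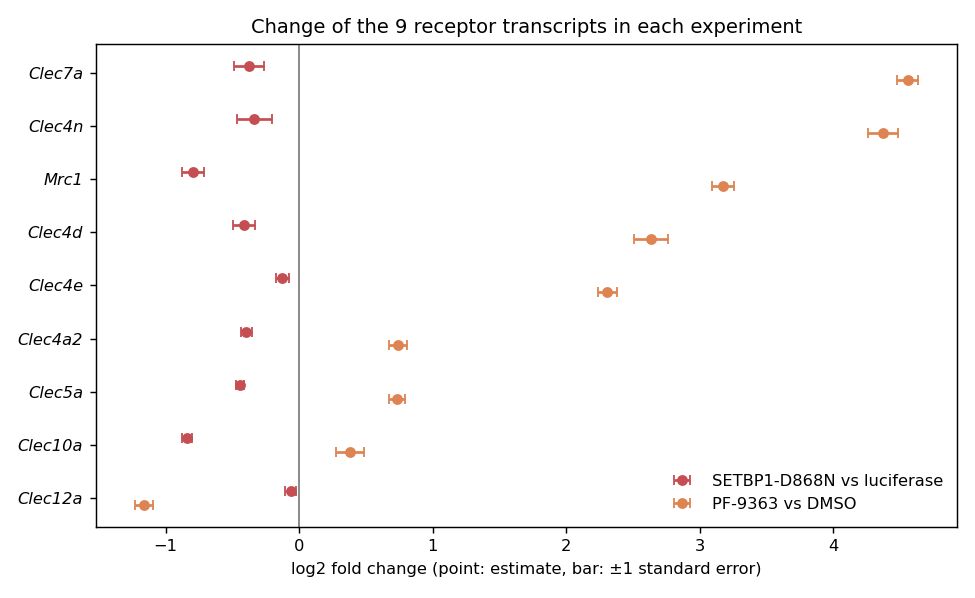
Log2 fold change of each receptor transcript in the 2 comparisons, SETBP1-D868N against luciferase and PF-9363 against DMSO, with bars of ±1 standard error. The first set lies between -0.84 and -0.06, and the second runs from -1.16 for Clec12a to 4.56 for Clec7a.

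Macrophage markers moved with the receptors in this experiment. All 10 rose, with a sum of 241 to 292 CPM with DMSO and 1472 to 1673 CPM with PF-9363. Among them Csf1r, the receptor for the growth factor CSF1, went from 62.1 ± 4.70 to 424 ± 22.8 CPM (SD, n = 4 each; edgeR adjusted p = 1.47e-23). Dendritic cell markers summed to 166 to 194 CPM with DMSO and 824 to 1038 CPM with PF-9363, with 5 of the 7 tested higher and Flt3 lower; Siglech was at 0 in all PF-9363 libraries. Mast cell and basophil markers went from 1300 to 1652 CPM to 4966 to 5973 CPM (9 of 10 higher), and erythroid and megakaryocyte markers from 46.7 to 55.1 CPM to 231 to 255 CPM (3 of the 4 tested higher, 0 lower). Of the neutrophil markers 5 of 10 were higher and 1 lower, with sums of 14124 to 17254 and 17195 to 18632 CPM. Over all genes tested, 36.6% were higher and 39.4% lower. The stem and progenitor sum went from 5719 to 6750 CPM down to 426 to 595 CPM, with 5 of 10 lower and 3 higher. The 5 lower were Mpo, Elane, Prtn3, Ctsg and Myb. With DMSO the sum was mainly Mpo, Elane, Prtn3 and Ctsg (means of 2320, 1453, 1054 and 1009 CPM). With PF-9363 these 4 were at 6.35, 1.75, 7.31 and 325 CPM. Slamf1, Cd48 and Procr were higher, and Cd34 and Ly6a were not called. The fall of the sum is therefore not a fall of all 10 markers. Of the lymphoid markers, Ebf1, Cd3e, Cd3g, Klrb1c, Klrd1 and Ms4a1 were at 0 in all 8 libraries, and the sum of 71.5 to 99.3 CPM with PF-9363 was mainly Il7r (71.1 to 98.5 CPM). The part of these shifts in the receptor levels was not tested.

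The make-up of the receptor pool differed between the groups. The 9 transcripts summed to 1001 to 1029 CPM with luciferase, 727 to 785 CPM with SETBP1-D868N, 1029 to 1091 CPM with DMSO and 3931 to 4793 CPM with PF-9363. Clec12a made up 38.2 to 42.5% of the sum with DMSO and 3.79 to 5.59% with PF-9363, and Mrc1 19.4 to 23.2% and 45.7 to 47.5%. The ratio of Clec7a to Clec12a counts, an activating against an inhibitory receptor at the 2 ends of 1 gene run, was 0.0991 to 0.113 with DMSO and 4.14 to 6.22 with PF-9363. With luciferase it was 0.744 to 0.823 and with SETBP1-D868N 0.562 to 0.679. The SETBP1-D868N and DMSO groups both carried the mutant and yet differed in this ratio. The experiments differ in RNA input, library preparation, depth and the 4 days with solvent. Marker sums differed too. Macrophage and dendritic cell markers were lower with DMSO (241 to 292 and 166 to 194 CPM) than with SETBP1-D868N (461 to 482 and 858 to 1022 CPM). Neutrophil markers were higher (14124 to 17254 against 11443 to 13924 CPM). The sources of the gap in the ratio cannot be told apart.

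To compare levels between genes, CPM were divided by the merged exon length of each gene. With luciferase the order by CPM per kb was Clec7a (50.4), Clec5a (48.8), Mrc1 (36.6), Clec4n (32.0), Clec12a (31.1), Clec4a2 (30.1), Clec10a (30.01), Clec4d (11.0) and Clec4e (9.97). Clec7a and Clec5a overlapped within 1 SD of their means, as did each neighbouring pair from Mrc1 to Clec10a, and Clec4d and Clec4e. With SETBP1-D868N, Clec7a (38.8 CPM per kb) and Clec5a (35.9) still led and again overlapped, and Clec4e (9.11) and Clec4d (8.24) were again last. With DMSO, Clec12a led at 78.5 ± 4.49 CPM per kb (SD, n = 4), above Clec5a at 41.6 ± 2.35 and Mrc1 at 36.2 ± 3.54, which overlapped. Clec4a2 followed at 25.6 CPM per kb, then Clec7a (17.0), Clec4d (14.9) and Clec4e (12.6), which overlapped in turn, and last Clec4n (8.20) and Clec10a (7.04), which also overlapped. With PF-9363 the order was Clec7a (399 ± 43.5 CPM per kb) and Mrc1 (326 ± 35.7), which overlapped, then Clec4n (170) and Clec4d (92.5). Clec5a (69.0 CPM per kb) and Clec4e (62.6) overlapped below these, and Clec4a2 (42.8), Clec12a (35.0) and Clec10a (9.17) closed the order. Clec12a was thus first of the 9 per length with DMSO and next to last with PF-9363, and Clec7a went from the fifth place to the first.

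Within the run of Clec4 genes the differences between PF-9363 and DMSO were unequal. In map order, Clec4a1 rose by 1.19 and Clec4a3, which encodes DCIR3, by 2.11 on the log2 scale (edgeR adjusted p = 1.21e-10 and 9.80e-18). Clec4a4 and Clec4b1 had too few counts to test, and Clec4a2 was at 0.74. Clec4b2 fell by 0.98 (edgeR adjusted p = 2.93e-05), from 92.3 to 124 CPM with DMSO to 43.7 to 66.7 CPM with PF-9363. Next to it, Clec4n was at 4.37, followed by Clec4d at 2.63 and Clec4e at 2.31. So a receptor with a lower level lay directly beside the 1 with the largest log2 fold change of the run. With SETBP1-D868N all 9 genes of this run had negative log2 fold changes, from -0.95 for Clec4a4 to -0.13 for Clec4e. In the second run, Clec12a (-1.16) and Clec7a (4.56) stood at opposite ends with PF-9363, and the 4 genes between them, Clec12b, Clec1b, Clec9a and Clec1a, had too few counts to test. The flanking genes Cd69 and Olr1 rose by 0.68 and 0.72 on the log2 scale (edgeR adjusted p = 3.02e-09 and 8.91e-10).

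**Figure D3:**
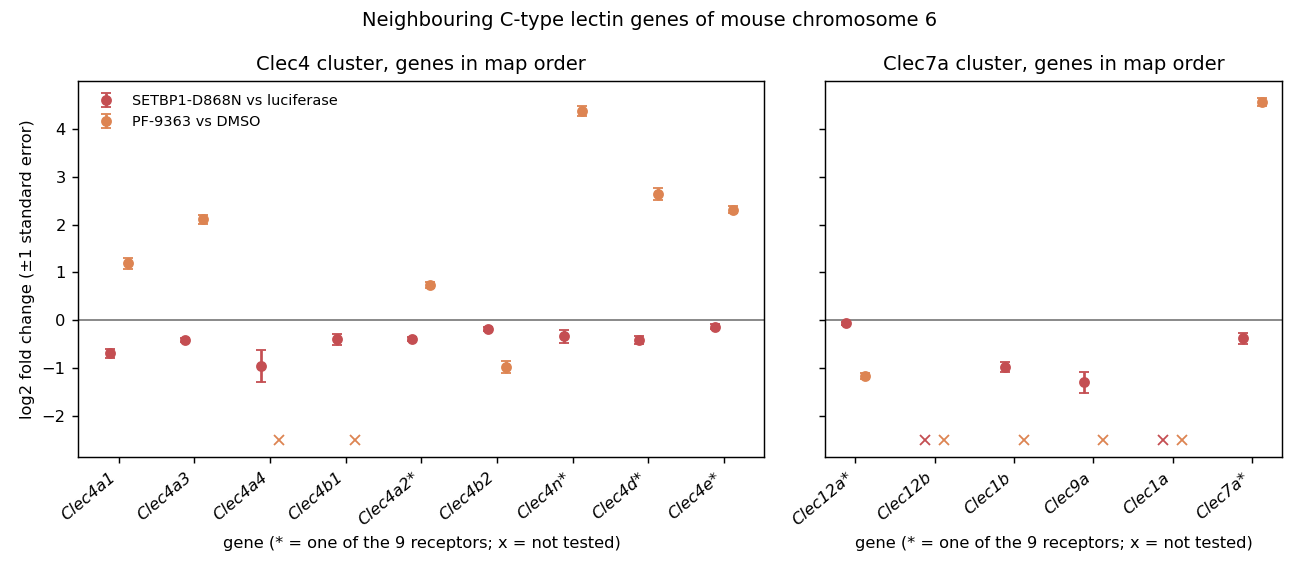
Log2 fold change (±1 standard error) of the C-type lectin genes in the 2 runs on chromosome 6, in map order but not to scale, for SETBP1-D868N against luciferase and PF-9363 against DMSO. Asterisks mark the receptors of the set and crosses genes with too few counts to test. In the Clec4 run the values with PF-9363 go from -0.98 for Clec4b2 to 4.37 for its neighbour Clec4n.

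A list of 32 other C-type lectin receptor genes places the 9 in their family. Of the 18 with enough counts in the first experiment, 3 rose and 11 fell with SETBP1-D868N, with a median log2 fold change of -0.43. That is 16.7% and 61.1%, beside 24.5% and 22.7% of all genes. Asgr2, a subunit of the asialoglycoprotein receptor, fell from 13.1 ± 0.259 to 4.50 ± 0.806 CPM (SD, n = 3 each; edgeR adjusted p = 7.70e-07). Clec1b, the receptor for podoplanin known as CLEC-2, fell by 0.97, Ly75, an endocytic relative of Mrc1, by 0.76, and Clec2d by 0.70 on the log2 scale. The 3 that rose were Clec2i (log2 fold change 0.73), Olr1 (0.34), the receptor for oxidised LDL, and Cd69 (0.26), an early activation antigen. Clec4a3 fell from 42.0 ± 1.56 to 31.7 ± 1.38 CPM (SD, n = 3 each; edgeR adjusted p = 1.14e-05). Of the 12 with enough counts in the second experiment, 7 rose and 4 fell with PF-9363, with a median of 0.70. That is 58.3% and 33.3%, beside 36.6% and 39.4% of all genes, so the share that fell was not above that of all genes. Without the filter on low counts 11 rose. The scavenger receptor Colec12 (log2 fold change 2.81), Cd302 (2.40), Clec4a3 (2.11) and Clec2d (2.02) rose most. Colec12 was at 0.200 to 1.45 CPM with DMSO and 3.09 to 10.1 CPM with PF-9363, so its value rests on few counts. Clec2i fell from 118 ± 12.5 to 31.1 ± 1.66 CPM (SD, n = 4 each; edgeR adjusted p = 3.23e-18), and Asgr2 (1.42 and 0.497 CPM) and Clec4b2 fell as well. Mgl2, the near-copy of Clec10a, was at 683 ± 24.4 and 622 ± 47.0 CPM (SD, n = 4 each), lower with an edgeR adjusted p of 0.0496 although the groups overlapped. The count of 4 falls was 3 with RLE scaling, with DESeq2, with the replicate block and without DMSO 2, 3 or 4 or PF-9363 2 or 3. It was 5 with library-size scaling and without PF-9363 4, and 6 without the filter on low counts. In both experiments 14 genes of the list were too low to test, the Cd209 genes other than Cd209a among them.

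The list of 27 signalling genes holds adaptors, kinases and NF-kB genes behind the activating receptors, and also phosphatases such as Ptpn6 and Ptpn11. All 27 had enough counts to test. With PF-9363, 23 rose and 2 fell (85.2% and 7.41%, beside 36.6% and 39.4% of all genes), with a median log2 fold change of 0.83. At least 2-fold higher were 10 of the 27, beside 15.8% of all genes. Fcer1g, the adaptor of Dectin-2, MCL and Mincle, went from 205 ± 13.4 to 675 ± 50.4 CPM (SD, n = 4 each; log2 fold change 1.72, edgeR adjusted p = 2.05e-19). Tyrobp, the adaptor of Clec5a, went from 180 ± 9.59 to 492 ± 38.5 CPM (1.45, edgeR adjusted p = 7.78e-18), whereas its second adaptor Hcst was at 15.2 ± 2.55 and 16.0 ± 3.25 CPM and was not called. Syk rose from 251 ± 13.8 to 562 ± 13.4 CPM (1.16, edgeR adjusted p = 1.45e-16). The adaptor Card9, downstream of Syk, was at 105 ± 10.7 and 118 ± 10.8 CPM with overlapping groups and was not called (log2 fold change 0.17, edgeR adjusted p = 0.0517). Among the largest rises were those of the Src-family kinases Src (log2 fold change 3.76) and Fgr (1.77) and of the NF-kB subunit Relb (3.40). The phosphatase Ptpn6, which inhibitory receptors recruit, rose by 0.74 (edgeR adjusted p = 3.89e-12), while Ptpn11 fell by 0.19 and the ubiquitin ligase Traf6 by 0.83. The call of 1 of these 2 falls was lost without PF-9363 4.

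With SETBP1-D868N, 18 of the 27 signalling genes fell and 1 rose, with a median log2 fold change of -0.23. Of all genes, 22.7% fell and 24.5% rose. None of the 18 was as much as 2-fold lower. Fcer1g went from 330 ± 5.95 to 267 ± 4.48 CPM (SD, n = 3 each; edgeR adjusted p = 1.54e-06), Tyrobp from 305 ± 3.82 to 221 ± 11.5 CPM, Syk from 362 ± 3.64 to 309 ± 9.73 CPM and Ptpn6 from 501 ± 8.46 to 408 ± 5.21 CPM. Fgr fell by 0.89, Map3k14, the kinase of the alternative NF-kB branch, by 0.77, Relb by 0.74 and Malt1 by 0.47 on the log2 scale. The 1 that rose was Card9, from 135 ± 8.69 to 147 ± 4.06 CPM (log2 fold change 0.12, edgeR adjusted p = 0.0427). That call was lost without luciferase 1, without SETBP1-D868N 1 or 2, with RLE scaling and with DESeq2.

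**Figure D4:**
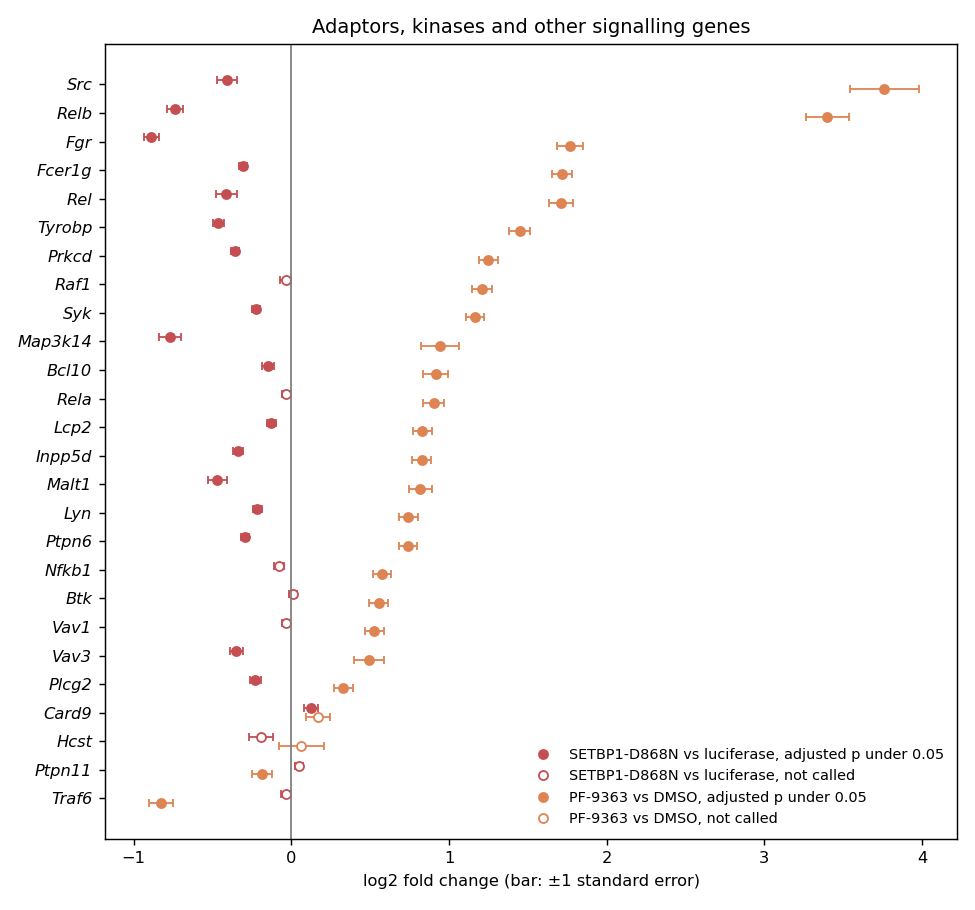
Log2 fold change (±1 standard error) of 26 of the 27 signalling genes for SETBP1-D868N against luciferase and PF-9363 against DMSO, ordered by the latter. Filled points passed an adjusted p of 0.05 in edgeR. With PF-9363 22 of the plotted genes lie above 0 and are filled, and Card9 and Hcst are open.

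The last lists describe the programmes that these receptors are known for. For comparison, 24.5% of all genes rose and 22.7% fell with SETBP1-D868N, and 36.6% rose and 39.4% fell with PF-9363. Of 20 genes that receptor signalling can induce, 15 had enough counts in the second experiment, and 13 rose and 2 fell with PF-9363 (median log2 fold change 1.99). The cytokine Tnf rose from 6.17 ± 0.994 to 50.1 ± 1.65 CPM (SD, n = 4 each; edgeR adjusted p = 2.45e-19), and the chemokine Cxcl2 and the inflammasome sensor Nlrp3 rose by 2.72 and 2.60 on the log2 scale. Nos2, the inducible nitric oxide synthase, fell from 10.2 ± 5.28 to 0.317 ± 0.284 CPM, and Pycard fell by 0.24 with overlapping groups. In the first experiment 17 were tested, 1 rose and 10 fell (median -0.32). Ccl4 rose by 0.19, and Nos2 (-1.76), Nlrp3 (-0.64) and Socs3 (-0.63) fell most on the log2 scale. Of 16 genes of alternative activation, the state for which Mrc1 and Clec10a serve as markers, 12 rose and 2 fell with PF-9363 (median log2 fold change 1.32). The transcription factor Klf4 (3.62), the inhibitory receptor Cd200r1 (2.68) and the chemokine Ccl22 (2.46) rose most, while the haemoglobin scavenger receptor Cd163 (-2.70, from 1.84 ± 0.798 to 0.294 ± 0.223 CPM) and Retnla (-1.08) fell. In the first experiment all 15 with enough counts fell (median -0.38), most of all Arg1 (log2 fold change -1.46), Retnla (-1.45) and Ccl22 (-0.88). These lists moved beside the marker shifts given above. They were of macrophage, neutrophil and dendritic cell markers with SETBP1-D868N. With PF-9363 they were of the macrophage, the dendritic cell, the mast cell and basophil, and the erythroid and megakaryocyte markers. Stem and progenitor markers moved in both directions with PF-9363. The part of those shifts was not tested.

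Across the 14 libraries, with log2(CPM + 2) centred within each experiment, the genes most like the mean of the 9 receptors were Psap (Pearson r = 0.999), Csf1, Atf3, Tarm1 and Slc15a3 out of 12376 genes, and the least alike were Lman1, Rbbp7 and Mapre2 (r between -0.998 and -0.999). The libraries fall into treated and untreated groups, so r mainly follows the difference between PF-9363 and DMSO and is a description of it. Csf1 and Atf3 had log2 fold changes of -0.73 and -0.66 with SETBP1-D868N and 3.17 and 3.28 with PF-9363. Of the receptors themselves, each of which is part of that mean, 7 had r between 0.940 and 0.998. Clec10a had 0.592, and Clec12a -0.962.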

How the data were processed

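For each experiment the authors deposited 1 table of raw counts, whole numbers per gene symbol. Per the submitters' processing notes, STAR, DESeq2 and the build GRCm38 (mm10) were used. The counter, annotation, strand setting and handling of multiply mapped reads are not given in the sources used here. Each table was analysed alone in R 4.3.3 with edgeR 4.0.16: genes were filtered with filterByExpr (minimum count 10, minimum total 15), scaled by TMM and compared between groups with the quasi-likelihood test (robust fit, two-sided). P-values were adjusted by Benjamini-Hochberg over all genes tested, with calls at 0.05. Rose and fell are used of such calls outside the 9 receptors. Standard errors are the absolute log2 fold change over the square root of F. The procedure was also run on simulated counts in which most genes were unchanged and some changed 2-fold. That setting was simpler than these libraries, so nothing about the results is read from it. Groups came from the sample titles. The 9 receptors and all gene lists were chosen with earlier results of these data known, so the receptors carry no p-value. The adjusted p-values printed for other genes come from the test over all genes. Those genes were chosen or named with the same knowledge, so their p-values describe single genes and give no support to the lists or the receptors.

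Named genes outside the 9 were the up to 4 called genes per direction with the largest change (up to 3 for the last 2 lists) and 1 CPM or more on average in either group, plus Fcer1g, Tyrobp, Syk, Card9, Ptpn6 and Clec4a3; some genes under this rule or in these lists are not reported here by name. Genes neighbouring the receptors, Hcst and single cell type markers were named after their values were seen. A list of stromal and endothelial markers was also measured (summed level 447 to 473 CPM in luciferase and SETBP1-D868N libraries, 545 to 597 CPM with DMSO and 598 to 658 CPM with PF-9363). Coordinates, exon lengths and shared 50-base stretches come from GENCODE M21. Alternatives were RLE or library-size scaling, no filter, DESeq2 1.42.0, the replicate number as a block, a 2-fold minimum, and leaving out each library.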

Additional observations from a re-analysis of the deposited data

How the results depend on the processing

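All 18 log2 fold changes of the 9 receptors kept their sign under the alternatives run (11 for SETBP1-D868N, 13 for PF-9363). The count of receptors called lower with SETBP1-D868N was 7, and 5 to 8 over the alternatives. With PF-9363 the count called higher was 8, and 7 only with library-size scaling, and the count called lower was 1 throughout. These counts were added after seeing the data.

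Among other C-type lectin receptors, a 2-fold minimum left 0 of the 3 higher and 2 of the 11 lower with SETBP1-D868N, and 2 of the 4 lower with PF-9363. Without the filter on low counts, 11 instead of 7 were higher and 6 instead of 4 lower with PF-9363. Among signalling genes with SETBP1-D868N, the 1 called higher (Card9) became 0 with RLE scaling, DESeq2 or the 2-fold minimum, 2 with library-size scaling, and 0 to 1 when leaving out each library. The 18 lower became 0 with the 2-fold minimum. With PF-9363 that minimum left 10 of 23 higher and 0 of 2 lower, and leaving out each library gave 1 to 2 lower (1 without PF-9363 4). Each is a stricter or wider count by construction or, for scaling, tool and left-out libraries, the cause was not tested.

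With the replicate block, signalling genes called higher with SETBP1-D868N went from 1 to 0, and other C-type lectin receptors called lower from 11 to 9 with SETBP1-D868N and from 4 to 3 with PF-9363. The numbers did not pair the libraries: deviations of same-numbered libraries correlated at -0.29 to -0.032 between SETBP1-D868N and luciferase and at -0.039 to 0.030 between PF-9363 and DMSO. For these last libraries, at 7083731 to 10359093 counts, a count of 0 allows up to 0.290 to 0.424 CPM (3 counts, counting error only). This limit applies to family genes without a count, such as Clec4f and Cd207; others that were not tested had a few counts.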
